A study of Mus musculus with 4 samples.

Results

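Kruppel-like factors are zinc finger proteins that bind GC-rich and CACCC elements of promoters. In endothelium and in lymphocytes, Klf2 is known as a target of the ERK5-MEF2 pathway and as a brake on growth and on NF-kB output. Klf4 is known from barrier epithelium and stem cells, Klf5 from dividing epithelium, and Klf6 and Klf10 as early responders to stress and to TGF-beta. Klf3 is a repressor, Klf9 is induced by glucocorticoids, and Klf13 acts in lymphocytes. The 8 members Klf2, Klf3, Klf4, Klf5, Klf6, Klf9, Klf10 and Klf13, out of 17 Klf symbols among 31053 listed genes, were followed here across classes of thymic epithelial cells (TECs). They were selected on these data, because Klf2 was high in Ccl21a-high cells when RANKL and CD40 signals were both missing. Each contrast of Cd40-/- RANKL-Ab with another library in those cells is therefore a description and supports nothing by itself.

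The cells were EpCAM-positive and negative for CD45 and TER119, sorted from C57BL/6 mice 6 weeks of age and profiled by droplet-based scRNA-seq. WT-Control mice were wild type and had received a control IgG, WT-RANKL-Ab mice were wild type and had received an antibody that neutralizes RANKL, and Cd40-/- Control and Cd40-/- RANKL-Ab mice carried the Cd40 deletion and had received the IgG or the antibody, respectively. Injection was at 4 weeks of age, 2 weeks before collection, and each condition is 1 library made from the pooled cells of 3 mice. No condition has a replicate, so no test between conditions was run, and a difference between libraries cannot be told apart from a difference between conditions.

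After filtering, 2082 to 10218 cells per library were kept, with 19153685 to 95277834 unique molecular identifiers (UMIs). The level of a gene is its UMIs per 1000000 UMIs of the cells of a class (CPM), given with its exact Poisson 95% interval. Log2 ratios of levels carry an exact conditional binomial 95% interval. All intervals cover counting error only and not the spread between mice, preparations or single cells. Cells were put into classes by marker genes, none of them a Klf gene, and the suffix -like marks a class named from markers. The Ccl21a-high class, cells with at least 100 Ccl21a UMIs per 10000 that passed neither the cycling gate nor those of cortical, tuft, microfold, neuroendocrine, ciliated or thymocyte genes, held 3215 cells in WT-Control and 3408 in WT-RANKL-Ab, beside 1773 for Cd40-/- Control and 1010 for Cd40-/- RANKL-Ab. Between 58 and 360 cells per library lay close to this limit, from 80 to 125 UMIs per 10000. Cd40 mRNA over all cells was 110.0 CPM in WT-Control, 28.8 CPM in WT-RANKL-Ab, then 5.75 CPM for Cd40-/- Control and 4.75 CPM for Cd40-/- RANKL-Ab.

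The Cd40-/- libraries shared 205 cell barcodes, 9.85% of the cells of Cd40-/- RANKL-Ab, whereas the other pairs shared 0.817% to 1.42% of the smaller library. These barcodes had a median of 24073 UMIs in Cd40-/- RANKL-Ab and 723 UMIs in Cd40-/- Control, and 144 of them fell into the same class in both. For 186 of them the profile in Cd40-/- Control was most like the profile of the same barcode in Cd40-/- RANKL-Ab. In the Ccl21a-high class they made up 27 cells of Cd40-/- Control and 41 cells of Cd40-/- RANKL-Ab. Klf2 in this class was 67.3 CPM and 376.9 CPM in these libraries with the shared barcodes, and 66.9 CPM and 379.9 CPM without them.

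The promoter of Klf2 is shown because it holds, 118 bases before the start of transcription, the consensus site of MEF2, the factor downstream of ERK5. The promoters of Klf4 and Klf6 are shown beside it because their levels, like that of Klf2, were higher in cells with more immediate early mRNA, as described below. Sequences are from RefSeq on GRCm38.p6 and run 5′ to 3′ from 250 to 51 bases before the start. Capitals mark GC boxes (GGGCGG on either strand) and, in Klf2, the MEF2 consensus.
Klf2, chr8:72318812-72319011, plus strand: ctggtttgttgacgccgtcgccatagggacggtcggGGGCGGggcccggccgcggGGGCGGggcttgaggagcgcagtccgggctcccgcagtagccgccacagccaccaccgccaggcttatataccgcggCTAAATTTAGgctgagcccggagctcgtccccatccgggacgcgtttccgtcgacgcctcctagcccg
Klf4, chr4:55532526-55532725, minus strand: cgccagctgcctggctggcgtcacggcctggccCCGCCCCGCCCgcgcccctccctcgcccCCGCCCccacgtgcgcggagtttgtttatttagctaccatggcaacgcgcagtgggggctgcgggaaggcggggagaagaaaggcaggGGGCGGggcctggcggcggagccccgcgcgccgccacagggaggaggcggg
Klf6, chr13:5861239-5861438, plus strand: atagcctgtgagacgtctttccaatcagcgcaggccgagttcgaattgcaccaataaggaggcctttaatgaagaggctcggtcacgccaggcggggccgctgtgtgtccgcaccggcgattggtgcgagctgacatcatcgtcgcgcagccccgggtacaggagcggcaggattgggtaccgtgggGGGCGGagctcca

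A promoter of 300 bases was at hand for 6 of the 8 members. Among 32851 such promoters, 183 (0.557%) held the MEF2 consensus on either strand, and Klf2 was the only member of the 6 that did. GC boxes stood in 35.7% of all promoters and in 5 of the 6 members, with 6 places in Klf3, 4 in Klf4, 3 in Klf13, 2 in Klf2 and 1 in Klf6. CACCC was present in 57.5% of promoters, among them 4 of the 6 members, Klf2, Klf3, Klf9 and Klf13. The core of the cyclic AMP response element (TGACG) was present in 20.8% of promoters and in Klf2, Klf3, Klf4, Klf9 and Klf13. The consensus sites of serum response factor (CArG box), NF-kB and the glucocorticoid receptor and the AP-1 site (TGANTCA with C or G as N) were found in 1.63%, 4.51%, 0.167% and 5.20% of promoters and in none of the 6 windows. A match is a string of letters and no evidence of binding, and its absence covers this window only.

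Klf2 (ENSMUSG00000055148, chromosome 8 from 72319033 to 72321656 on the plus strand of GRCm38) had the widest range among the members in Ccl21a-high cells. Its level was 38.4 CPM (95% interval, 35.9 to 41.0) in WT-Control, 102.4 CPM (98.4 to 106.5) in WT-RANKL-Ab, then 67.3 CPM (62.6 to 72.4) for Cd40-/- Control and 376.9 CPM (363.9 to 390.3) for Cd40-/- RANKL-Ab. None of the 4 counting intervals overlapped. Against WT-Control the level was 2.67-fold higher (2.47 to 2.88) with the antibody alone and 1.76-fold higher (1.59 to 1.94) in the absence of Cd40 alone, while the contrast that chose the gene stood at 9.82-fold (9.12 to 10.6). These ratios share WT-Control as their reference. Within Cd40-/- mice, the library of antibody-treated mice was 5.60-fold (5.17 to 6.07) above that of IgG-treated mice. This contrast holds the Cd40-/- RANKL-Ab level behind the choice and is a description too.

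**Figure D1:**
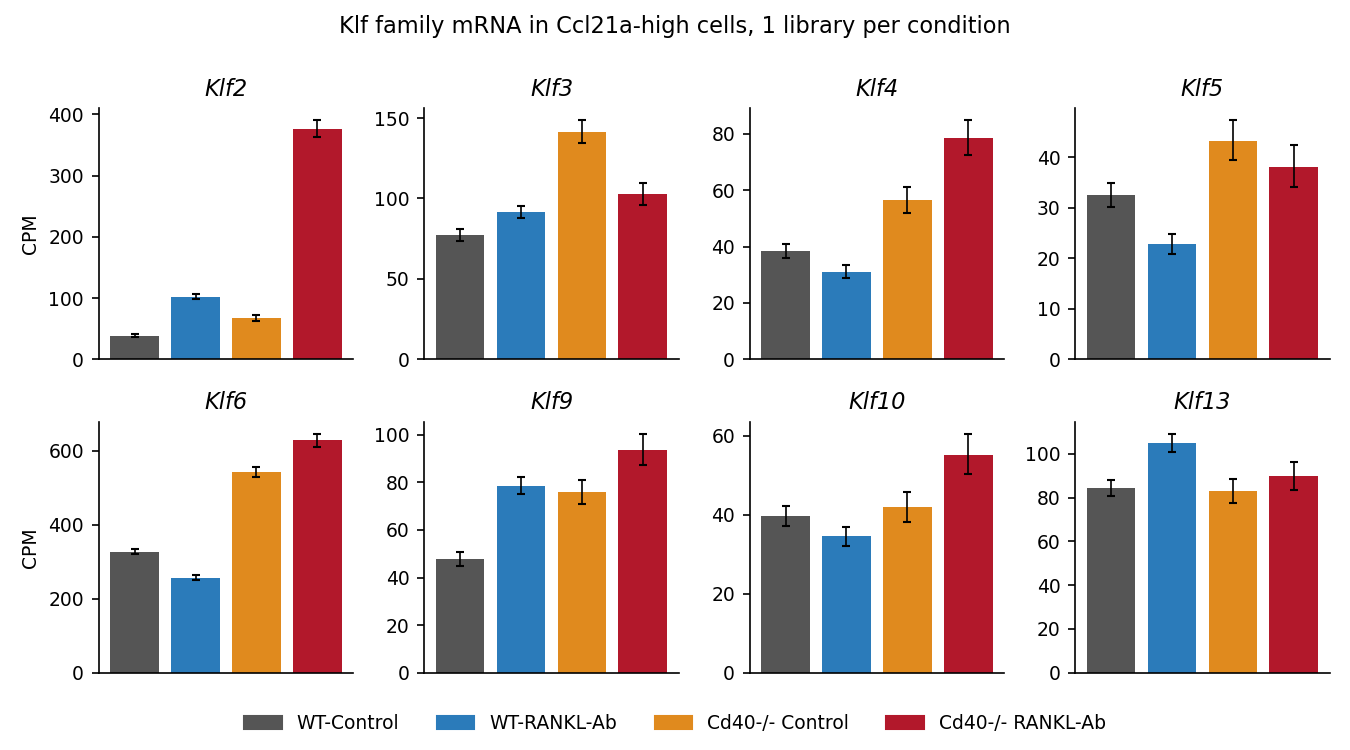
Levels of the 8 members in Ccl21a-high cells (CPM, each panel with its own axis from 0), with 1 bar per library and exact Poisson 95% intervals for counting error. Klf2 spans 38.4 to 376.9 CPM, whereas Klf13 stays between 82.8 and 104.9 CPM.

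Calls were made by size only: a gene was called when its CPM, with 10 CPM added, differed at least 2-fold among genes with at least 50 UMIs in the compared libraries together. All 8 members passed this minimum in Ccl21a-high cells. In WT-RANKL-Ab against WT-Control, Klf2 was the only member called higher, where 0.185% of 12972 genes were, and no member was called lower, where 0.956% of genes were. Klf2 ranked 11th from the top of these genes. In Cd40-/- Control against WT-Control, no member was called, at backgrounds of 0.55% higher and 0.574% lower. In Cd40-/- RANKL-Ab against WT-Control, the contrast behind the choice, Klf2 was called and no other member, at backgrounds of 1.44% higher and 1.95% lower. Within Cd40-/-, Klf2 was the only member called higher with the antibody, where 0.631% of genes were higher and 1.64% lower. That call uses the Cd40-/- RANKL-Ab level behind the choice and is not independent of it. The median log2 ratio over the 8 members, with 10 CPM added, was 0.03 in WT-RANKL-Ab, then 0.51 for Cd40-/- Control and 0.62 for Cd40-/- RANKL-Ab, beside medians over all genes tested of 0.07, 0.07 and 0.06. Scaling by TMM factors in place of totals shifted every ratio to WT-Control in these cells by -0.13, -0.16 and -0.12 in the same order.

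The Ccl21a-high class was split by Mgp and Gpx3, which mark a part of these cells. In Mgp/Gpx3-low cells Klf2 was 19.4 CPM in WT-Control, 57.0 CPM in WT-RANKL-Ab, then 43.3 CPM for Cd40-/- Control and 314.7 CPM for Cd40-/- RANKL-Ab. Mgp/Gpx3-high cells held 61.4 CPM, 183.8 CPM, 92.0 CPM and 417.4 CPM in the same order. The order of the libraries was thus alike in both subsets. Klf2 was 3.16-fold higher in Mgp/Gpx3-high than in Mgp/Gpx3-low cells of WT-Control and 1.33-fold higher in those of Cd40-/- RANKL-Ab, so the subsets lay closer together in the latter library. Klf13 was lower in Mgp/Gpx3-high cells of each library, at 0.683-fold, 0.560-fold, 0.635-fold and 0.727-fold of the Mgp/Gpx3-low level.

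The share of cells with a Klf2 UMI followed the same order. After thinning each cell to 1000 UMIs, 2.88% (exact Clopper-Pearson 95% interval, 2.32 to 3.53) of Ccl21a-high cells of WT-Control held a Klf2 UMI, as did 6.74% (5.92 to 7.64) for WT-RANKL-Ab, 4.64% (3.70 to 5.74) for Cd40-/- Control and 23.6% (21.0 to 26.4) for Cd40-/- RANKL-Ab. Thinning left out 92, 41, 49 and 7 shallower cells. Without thinning the shares were 11.5%, 23.0%, 17.8% and 64.4%, at median depths of 6188, 6595.5, 5731 and 7546.5 UMIs. The lowest share in any class compared was 1.20% (0.485 to 2.46), in cycling Ccl21a-low cells of WT-Control, whose median depth was 17027.5 UMIs, and is taken as the background. The tenth of Ccl21a-high cells richest in Klf2 held 94.4% of its UMIs in WT-Control and 79.7% in WT-RANKL-Ab, against 81.5% for Cd40-/- Control and 50.1% for Cd40-/- RANKL-Ab. These values, taken without thinning, depend on how many cells hold any Klf2 UMI. They do not measure how evenly Klf2 is spread over cells.

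RNA set free from broken cells can add UMIs to other cells. Ccl21a gives a yardstick for it: tuft-like cells of Cd40-/- RANKL-Ab held 8.51% of the Ccl21a level of Ccl21a-high cells, and cTEC-like cells 7.45%. At those percentages, Klf2 from Ccl21a-high cells would amount to 32.1 CPM for the tuft-like class and 28.1 CPM for the cTEC-like class, while the measured levels were 112.5 and 104.1 CPM. In the remaining libraries the same yardstick gave 1.79 to 10.6 CPM for the cTEC-like class and 4.32 to 8.97 CPM for the tuft-like class.

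Klf6 and Klf4 stood apart from Klf2 in WT-RANKL-Ab. Klf6 (chromosome 13 from 5861482 to 5870394) was 327.2 CPM in WT-Control, 256.9 CPM in WT-RANKL-Ab, then 543.7 CPM for Cd40-/- Control and 628.6 CPM for Cd40-/- RANKL-Ab of Ccl21a-high cells. Klf4 (chromosome 4 from 55527143 to 55532466) was 38.5 CPM, 31.0 CPM, 56.4 CPM and 78.6 CPM in the same order. Both were lowest in WT-RANKL-Ab, where Klf2 was above WT-Control, and both were highest in Cd40-/- RANKL-Ab. On the log2 scale the antibody in wild-type mice went with -0.35 (-0.40 to -0.30) for Klf6 and -0.31 (-0.45 to -0.17) for Klf4. In cells at or below the WT-Control median of immediate early genes the ratio of Klf6 was 0.00 (-0.09 to 0.09), and that of Klf4 was -0.51 (-0.77 to -0.25), an interval that overlaps that of the whole class.

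Klf5 (chromosome 14 from 99298691 to 99315036) was 32.4 CPM, 22.8 CPM, 43.2 CPM and 38.0 CPM in the same order of libraries, and lowest in WT-RANKL-Ab as well. Klf10 (chromosome 15 from 38291463 to 38300706) was 39.5 CPM, 34.5 CPM, 41.8 CPM and 55.2 CPM, and differed from WT-Control in Cd40-/- Control by less than its counting error, with a log2 ratio of 0.08 that was -0.08 under TMM scaling. Klf9 (chromosome 19 from 23141226 to 23168134) was 47.8 CPM, 78.5 CPM, 75.8 CPM and 93.5 CPM, with WT-Control the lowest library. Klf3 (chromosome 5 from 64803388 to 64832901) was 77.1 CPM, 91.6 CPM, 141.3 CPM and 102.6 CPM, and was the only member besides Klf5 with its highest level in Cd40-/- Control. Klf13 (chromosome 7 from 63886351 to 63938915) was 84.3 CPM, 104.9 CPM, 82.8 CPM and 89.6 CPM. Its intervals in WT-Control and both Cd40-/- libraries overlapped, and its log2 ratio in Cd40-/- RANKL-Ab, 0.09, was -0.03 under TMM scaling.

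Immediate early genes, which respond within minutes to stimuli and also to tissue digestion, moved with several members. Their summed level in Ccl21a-high cells (12 genes, all detected) was 2905 CPM in WT-Control, 2307 CPM in WT-RANKL-Ab, then 3705 CPM for Cd40-/- Control and 4933 CPM for Cd40-/- RANKL-Ab. Of these 12 genes, 4 (Fos, Fosb, Ier3 and Zfp36) were called higher in Cd40-/- RANKL-Ab than in WT-Control, and 1 (Atf3) was called lower in WT-RANKL-Ab. The background of the calls in Cd40-/- RANKL-Ab is the 1.44% of all genes given above. In Cd40-/- Control and within Cd40-/-, 0 of the 12 were called, at backgrounds of 0.55% and 0.631%. Jun, Fos and Junb had the most UMIs. Fos was 467.8 CPM, 416.8 CPM, 704.4 CPM and 1196 CPM. Klf6, Klf4 and Klf10 shared this order, Klf10 with WT-Control and Cd40-/- Control within counting error, and Klf2 did not. The part of the immediate early genes in the levels of the members was not tested.

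Cells within the same range of immediate early level were then set side by side. The limits of 4 ranges were the quartiles of WT-Control cells with at least 2000 UMIs. In the lowest range, Klf2 was 22.9 CPM (19.3 to 27.1) in WT-Control, 46.3 CPM (42.2 to 50.8) in WT-RANKL-Ab, then 39.2 CPM (31.4 to 48.3) for Cd40-/- Control and 184.7 CPM (164.7 to 206.6) for Cd40-/- RANKL-Ab, at summed immediate early levels of 416.4, 357.2, 424.9 and 401.4 CPM. The order of the libraries in the lowest range was that of the whole class, although WT-RANKL-Ab and Cd40-/- Control had overlapping intervals. In the highest range Klf2 was 96.1 CPM, 338.4 CPM, 134.9 CPM and 624.8 CPM. That range has no upper limit and was less well matched. Its summed immediate early levels were 8065, 8164, 8720 and 10392 CPM in the same order. In each library the Klf2 level was higher in the highest than in the lowest range, with intervals apart.

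Klf6 in the lowest range was 111.0 CPM in WT-Control, 130.8 CPM in WT-RANKL-Ab, then 147.0 CPM for Cd40-/- Control and 234.7 CPM for Cd40-/- RANKL-Ab. In the highest range it was 759.1 CPM, 645.9 CPM, 1116 CPM and 1099 CPM. Its spread across the ranges of a library was wider than its spread across libraries. Klf4 in the lowest range was 19.6 CPM, 14.2 CPM, 23.2 CPM and 22.9 CPM, so that Cd40-/- RANKL-Ab and WT-Control were close, and 86.6 CPM, 92.9 CPM, 102.6 CPM and 139.6 CPM in the highest. Klf3 hardly varied with immediate early level, from 73.8 to 80.3 CPM across the ranges of WT-Control and from 130.5 to 151.0 CPM across those of Cd40-/- Control.

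**Figure D2:**
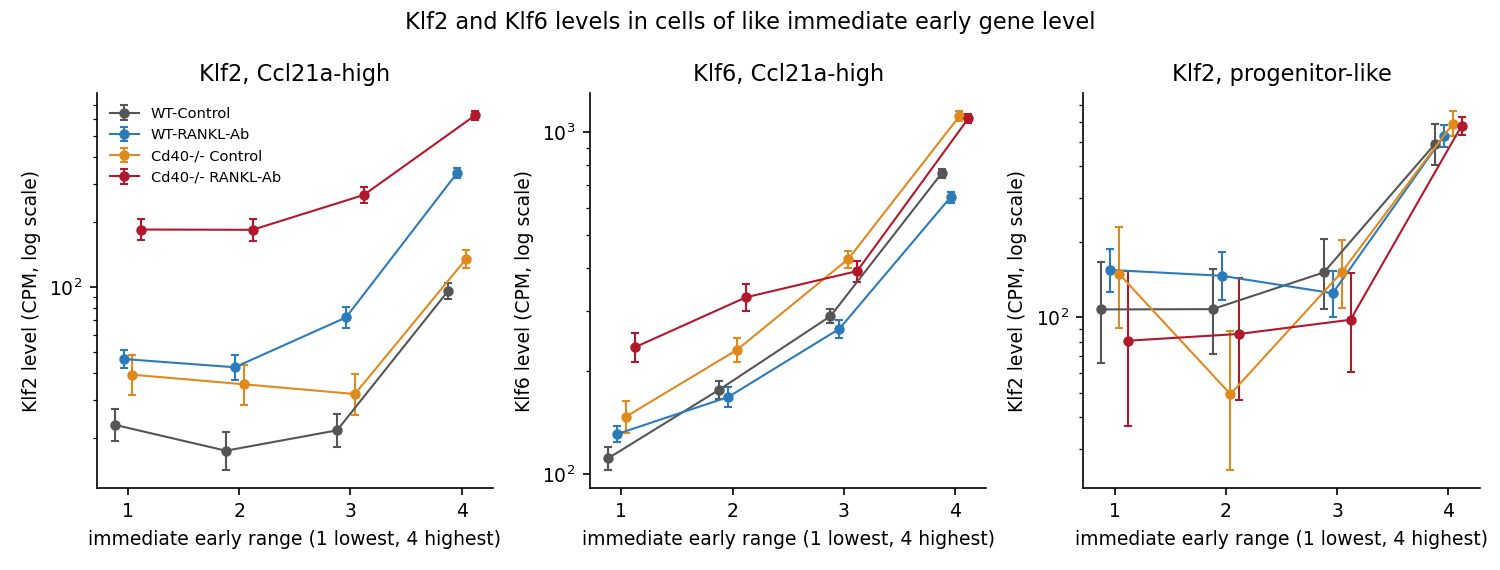
Levels (CPM, log axis) of Klf2 and Klf6 in Ccl21a-high cells and of Klf2 in progenitor-like cells, by range of immediate early level from 1 (lowest) to 4 (highest), with 1 line per library and exact Poisson 95% intervals. In Ccl21a-high cells Klf2 of Cd40-/- RANKL-Ab lies above the other libraries in each range, from 184.7 CPM in the lowest to 624.8 CPM in the highest. In the highest range of progenitor-like cells the 4 libraries lie between 491.5 and 591.5 CPM. The highest range has no upper limit, so immediate early levels within it differ between libraries.

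Markers of TEC progenitors also differed between libraries in Ccl21a-high cells, in an order that was not that of Klf2. WT-RANKL-Ab lay below Cd40-/- Control for these markers and above it for Klf2. The summed level of 6 markers was 403.0 CPM in WT-Control, 434.2 CPM in WT-RANKL-Ab, then 705.9 CPM for Cd40-/- Control and 1436 CPM for Cd40-/- RANKL-Ab, with Dcn, a matrix proteoglycan, at 164.5 CPM in WT-Control, beside 921.7 CPM for Cd40-/- RANKL-Ab. In cells that passed no other class gate, Klf2 was 36.8 CPM, 107.2 CPM, 66.3 CPM and 362.5 CPM, as in the whole class, although their progenitor markers still summed to 376.2 CPM, 367.9 CPM, 564.5 CPM and 917.5 CPM. The 7 endothelial markers, which would mark a cell type rich in Klf2, summed to 2.16 to 12.0 CPM across the libraries, and Pecam1 was at most 3.68 CPM. The 10 thymocyte markers summed to 11.3 to 19.97 CPM. The 5 fibroblast markers summed to 11.6 CPM in WT-Control, 8.35 CPM in WT-RANKL-Ab, then 41.6 CPM for Cd40-/- Control and 32.7 CPM for Cd40-/- RANKL-Ab, so that both Cd40-/- libraries were higher. Among them Col3a1, a fibrillar collagen, was called higher in both Cd40-/- libraries, at 5.22 CPM and 2.83 CPM in the wild-type and 26.3 CPM and 22.1 CPM in the Cd40-/- libraries. Both the endothelial and the thymocyte sums were highest in Cd40-/- RANKL-Ab, and the part of the 3 lists in the Klf2 level was not tested.

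Progenitor-like cells, gated on Pdpn, Dcn, Ackr4, Serpinf1, Fmod and Fst among cells that were not Ccl21a-high, numbered 129 in WT-Control and 438 in WT-RANKL-Ab, and 241 and 186 in Cd40-/- Control and Cd40-/- RANKL-Ab. Klf2 was already high there in WT-Control, at 213.5 CPM (185.2 to 244.8), which was 5.56-fold the level of Ccl21a-high cells of the same library. It was 244.1 CPM (225.9 to 263.5) in WT-RANKL-Ab, then 323.0 CPM (291.7 to 356.7) for Cd40-/- Control and 415.7 CPM (383.5 to 450.0) for Cd40-/- RANKL-Ab. The intervals of WT-Control and WT-RANKL-Ab overlapped. In Cd40-/- RANKL-Ab the level of progenitor-like cells was only 1.10-fold (log2 interval, 0.01 to 0.27) that of Ccl21a-high cells.

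Within ranges of immediate early level, Klf2 of progenitor-like cells did not follow the libraries. In the highest range it was 491.5 CPM in WT-Control, 528.8 CPM in WT-RANKL-Ab, then 591.5 CPM for Cd40-/- Control and 581.5 CPM for Cd40-/- RANKL-Ab. The libraries were not matched within that range, with summed immediate early levels of 6654 CPM in WT-Control and 11413 CPM in WT-RANKL-Ab. In the lowest range, where Cd40-/- RANKL-Ab had 17 cells, Klf2 was 107.7 CPM, 154.6 CPM, 149.0 CPM and 80.8 CPM. The highest range held 25.2% and 29.0% of the cells of this class in WT-Control and WT-RANKL-Ab, and 44.0% and 62.4% in the Cd40-/- libraries without and with the antibody. Among cells at or below the WT-Control median of immediate early genes, the log2 ratio of Klf2 in Cd40-/- RANKL-Ab to WT-Control was -0.37 (-1.16 to 0.37, from 23 and 48 UMIs), an interval that includes 0, where it was 0.96 (0.73 to 1.20) over all progenitor-like cells.

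Klf4 of progenitor-like cells was 54.1 CPM, 69.1 CPM, 90.3 CPM and 121.2 CPM, and the interval of WT-Control overlapped only that of WT-RANKL-Ab. By size, Klf4 was the 1 member called higher in Cd40-/- RANKL-Ab, of 7 members tested, where 1.11% of all genes were. Its log2 ratio with 10 CPM added, 1.03, was 0.96 under TMM scaling, so that this call was lost. No member was called in WT-RANKL-Ab (0.311% of genes higher) or, of 6 tested, in Cd40-/- Control (3.79%). The immediate early list had 11 of 12 genes called higher in Cd40-/- RANKL-Ab in this class, and its part in the Klf4 level was not tested. At or below the WT-Control median of these genes Klf4 had 7 UMIs in WT-Control and 5 in Cd40-/- RANKL-Ab, too few to read a ratio. Klf2, Klf4, Klf5 and Klf6 are on the list of progenitor genes that the study drew from these libraries, so their level in this class is not independent evidence.

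**Figure D3:**
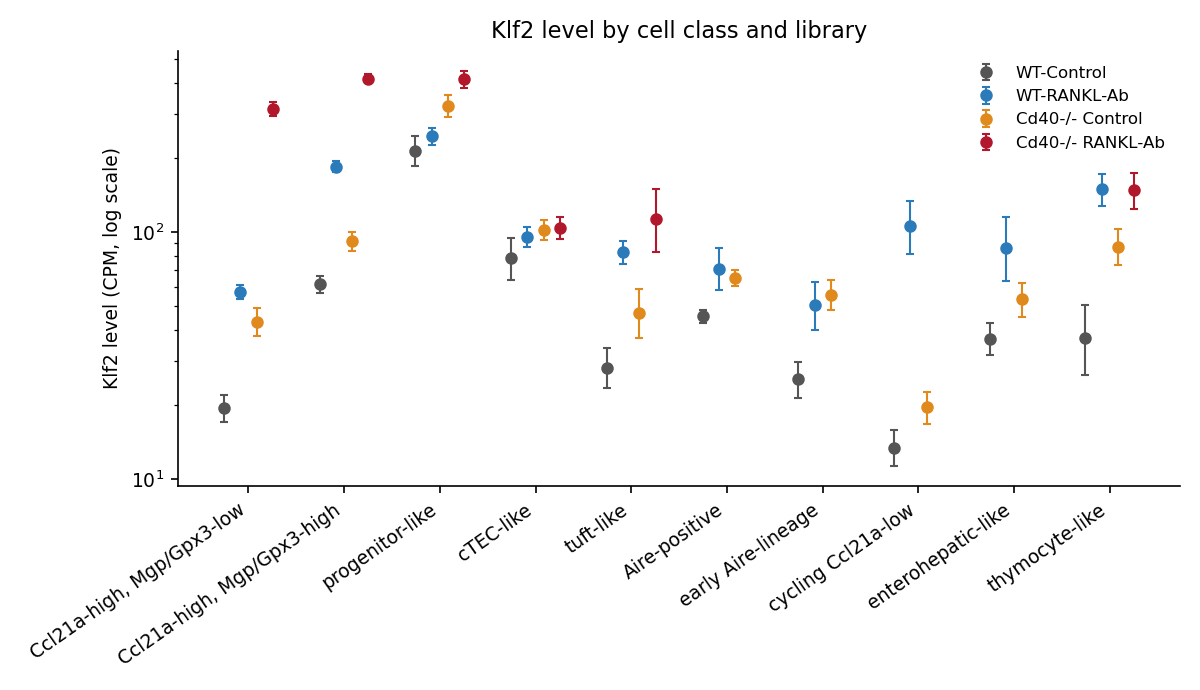
Klf2 level (CPM, log axis) by cell class and library, with exact Poisson 95% intervals; classes with under 50 cells in a library have no point. Ccl21a-high cells are drawn as their Mgp/Gpx3-low and Mgp/Gpx3-high subsets, at 314.7 and 417.4 CPM in Cd40-/- RANKL-Ab, and progenitor-like cells span 213.5 to 415.7 CPM.

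In cTEC-like cells, gated on Prss16 and Psmb11 of the cortical thymoproteasome and antigen processing, Klf2 differed little. It was 78.2 CPM (63.8 to 94.8) in WT-Control, 95.8 CPM (87.0 to 105.2) in WT-RANKL-Ab, then 101.8 CPM (92.9 to 111.3) for Cd40-/- Control and 104.1 CPM (94.1 to 115.0) for Cd40-/- RANKL-Ab. The WT-Control library had 124 such cells, and its interval overlapped that of each other library. Klf3 was 72.1 CPM, 88.3 CPM, 157.9 CPM and 115.3 CPM, and was the only member called higher in Cd40-/- Control, at a background of 1.55%. With 10 CPM added the log2 ratio of this call was 1.03, and it was lost under TMM scaling, at 0.87. No member was called in WT-RANKL-Ab, of 7 tested (0.341% of genes higher), or in Cd40-/- RANKL-Ab (0.902%). The log2 ratio of Klf2 in Cd40-/- RANKL-Ab to WT-Control, 0.41 (0.10 to 0.74), was -0.10 in cells without a thymocyte marker UMI and -0.21 as a mean over cells.

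Tuft-like cells, gated on genes of the chemosensory pathway such as Trpm5 and Gnat3, held the highest Klf5 and, with cells gated on keratinocyte genes, the highest Klf4. Klf5 was 252.3 CPM in WT-Control, 337.4 CPM in WT-RANKL-Ab, then 296.2 CPM for Cd40-/- Control and 286.0 CPM for Cd40-/- RANKL-Ab, between 6.86-fold and 14.8-fold the level of Ccl21a-high cells of the same library. Klf4 was 188.0 CPM, 243.2 CPM, 262.5 CPM and 356.3 CPM. In cells gated on keratinocyte genes Klf4 was 235.3 CPM in WT-Control, beside 352.6 CPM for Cd40-/- Control. Klf2 of tuft-like cells was 28.2 CPM (23.4 to 33.8), 82.9 CPM (74.5 to 92.0), 47.0 CPM (37.1 to 58.6) and 112.5 CPM (83.0 to 149.2), the last from 48 UMIs in 64 cells. The order of the 4 libraries matched that in Ccl21a-high cells, and the antibody libraries of both genotypes had overlapping intervals. In WT-RANKL-Ab, Klf2 was the only member called higher, at a background of 0.391%. In Cd40-/- Control no member was called (0.509%). In Cd40-/- RANKL-Ab, Klf2 and Klf10 were called (2.3% of genes), Klf10 from 27 UMIs.

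**Figure D4:**
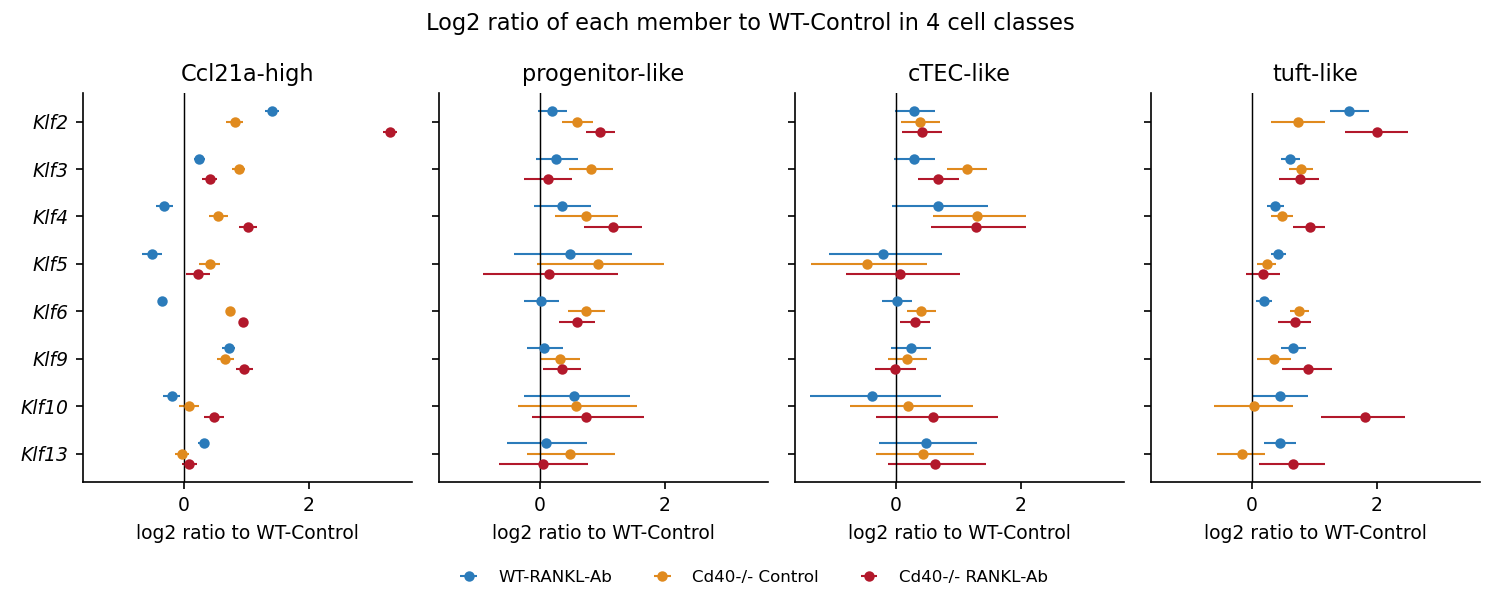
Log2 ratio of each member to WT-Control in 4 cell classes, with exact conditional binomial 95% intervals; the 3 libraries share WT-Control as the reference. Klf2 in Ccl21a-high cells of Cd40-/- RANKL-Ab, at 3.30, is the largest ratio drawn, and in cTEC-like cells the ratio of Klf2 in that library is 0.41.

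In classes that were nearly lost in Cd40-/- RANKL-Ab, the members could be read in the other libraries. Klf2 of cycling Ccl21a-low cells was 13.4 CPM in WT-Control, 105.5 CPM in WT-RANKL-Ab and 19.5 CPM in Cd40-/- Control, although WT-RANKL-Ab kept 73 such cells of a median depth of 5806 UMIs beside 588 cells at 17027.5 UMIs in WT-Control. Of those 73 cells 19.2% held a Klf2 UMI without thinning, with up to 21 Klf2 UMIs in a cell, so few cells set the level. In Aire-positive cells Klf2 was 45.6 CPM, 71.2 CPM and 65.3 CPM. Klf6 of Aire-positive cells was 226.1 CPM, 302.6 CPM and 457.1 CPM, the latter a log2 ratio of 1.02 (0.96 to 1.07) to WT-Control. Klf6 was higher in Cd40-/- Control than in WT-Control in each class with 50 cells in both, although in ciliated-gated cells by less than its counting error. Klf2 is known to maintain the exit of T cells from the thymus. In thymocyte-like cells Klf2 was 37.1 CPM in WT-Control, 148.6 CPM in WT-RANKL-Ab, then 87.2 CPM for Cd40-/- Control and 147.3 CPM for Cd40-/- RANKL-Ab. The median depths of these cells were 5106, 1660, 1457 and 1652 UMIs in the same order.

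Among other genes of the family, Klf7 was the only one of 5 tested that was called higher in Ccl21a-high cells of Cd40-/- RANKL-Ab. Klf7 was 41.8 CPM in WT-Control, 70.8 CPM in WT-RANKL-Ab, then 72.1 CPM for Cd40-/- Control and 114.8 CPM for Cd40-/- RANKL-Ab. The related Sp factors had no call among 5 tested, with a median log2 ratio of 0.48. Of the ERK5-MEF2 axis, which drives Klf2 in endothelium, 8 of 8 genes were tested and 0 were called in any of the 3 libraries, where 0.185%, 0.55% and 1.44% of all genes were called higher, so a list of this size would hardly hold a call at the background. Mef2a, with the most UMIs, was 87.7 CPM, 115.2 CPM, 171.1 CPM and 130.4 CPM, and so was highest in Cd40-/- Control and not in Cd40-/- RANKL-Ab. It does not stand for the other genes of the axis, whose levels are not given here.

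A list of genes taken to be induced by KLF2 or KLF4 in endothelium was read next. In Cd40-/- RANKL-Ab, 2 of 6 tested were called higher, Thbd and Txnip, against a background of 1.44%. The median log2 ratio was 0.11. Whether KLF2 or KLF4 induces the listed genes, Txnip among them, was not tested. For WT-RANKL-Ab 0 of 6 were called higher, for Cd40-/- Control 0 of 6 and within Cd40-/- 0 of 5, at backgrounds of 0.185%, 0.55% and 0.631%. Thbd, the receptor of thrombin, was 6.16 CPM in WT-Control, 15.4 CPM in WT-RANKL-Ab, then 11.9 CPM for Cd40-/- Control and 28.1 CPM for Cd40-/- RANKL-Ab, which is the order of Klf2. Txnip, a regulator of glucose uptake, was 52.2 CPM, 87.2 CPM, 68.7 CPM and 125.9 CPM, again in that order. Cdkn1a was 60.3 CPM, 47.4 CPM, 81.8 CPM and 67.4 CPM, which is not. Calls in Cd40-/- RANKL-Ab against WT-Control were not particular to this list. The immediate early list had 4 of 12 genes called higher, as given above. Klf7 of the other Klf genes and Col3a1 of the fibroblast markers were also called higher. Of the heat shock list 1 of 8 genes (Hspa1b) was called higher, and none of 7 glucocorticoid-induced genes, 11 clock genes, 8 TGF-beta-induced genes or 10 NF-kB feedback genes was called in either direction.

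The genes most like each member were sought over 53 sums of a class and library, among 10104 genes, as a description only, since sums of 1 library share its cells and depth. Klf2 was most like Bace1, Prelp and Gm12840 (Pearson r of 0.78, 0.75 and 0.75 over log2 CPM with 10 CPM added). Klf4 was most like Cenpb, Klf5 and 4833423E24Rik (0.87, 0.84 and 0.83), and Klf5 like 4930539E08Rik, Sntb1 and Tspan8 (0.88 each). Klf3 followed Kmt2e, Ist1 and Msl1 (0.89, 0.87 and 0.87), Klf6 Malt1, Pak1 and Apaf1 (0.78, 0.75 and 0.73) and Klf9 Zfp612, Ryk and Gm26782 (0.76, 0.75 and 0.72). Klf10 followed Ccdc85b, Mob2 and Mapk7, the gene of ERK5 (0.75, 0.74 and 0.71), and Klf13 was most like Zeb1 (0.85).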

How the data were processed

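The sorted cells of each condition were profiled as 1 droplet library. The authors aligned the reads to mm10 and deposited whole UMI counts per gene and called barcode, without normalization, made with Cell Ranger (version 5.0.1 in the matrix headers, 5.1 in the submitters' processing notes). Barcodes needed 200 genes, counted among genes found in over 5 cells, and no more than 25% of UMIs from mitochondria. No gene was removed from the sums or totals by this rule. Doublets were neither called nor removed. Marker gates were applied in a fixed order, with limits set after their distributions had been seen. UMIs were summed by class and library in Python 3.11.15 with numpy 2.4.6, scipy 1.17.1 and pandas 2.3.3. TMM factors from edgeR 4.0.16, other gate limits, other scalings and subsets of cells were tried as alternatives. The interval code was tested on simulated data. The members, gene lists and comparisons were chosen with earlier results of these data known. By rule, each member was described, and genes of a list by their calls and the 3 with the most UMIs. The text names fewer than 3 genes by UMIs for several lists. Gene coordinates come from GENCODE M21 (GRCm38).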

Additional observations from a re-analysis of the deposited data

Results flagged for a closer look

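In Ccl21a-high cells, 4 members had ratios of antibody to control IgG of opposite sign in wild-type and Cd40-/- mice, each with a counting interval off 0, and with 1 library per condition the difference was not tested. On the log2 scale Klf3 was 0.25 (0.16 to 0.34) in wild-type mice and -0.46 (-0.58 to -0.34) in Cd40-/- mice. Klf4 was -0.31 (-0.45 to -0.17) and 0.48 (0.32 to 0.64), Klf6 was -0.35 (-0.40 to -0.30) and 0.21 (0.16 to 0.26), and Klf10 was -0.20 (-0.33 to -0.06) and 0.40 (0.21 to 0.59). Klf2 was higher with the antibody in both. In the lowest of 4 ranges of immediate early level, 3 of the 4 did not keep this pattern of signs. There Klf6 was 111.0 CPM in WT-Control and 130.8 CPM in WT-RANKL-Ab, with intervals apart, and 147.0 and 234.7 CPM in the Cd40-/- libraries. Klf10 was 28.3 and 30.7 CPM in wild-type mice and 31.6 and 27.7 CPM in Cd40-/- mice, and Klf4 was 19.6 and 14.2 CPM, then 23.2 and 22.9 CPM, while Klf3, at 74.7 and 88.0 CPM, then 130.5 and 104.1 CPM, kept it. All Klf10 intervals of this range overlapped, as did those of Klf4 in Cd40-/- mice. In range 2, each of the 4 kept the pattern, with overlapping intervals in wild-type mice. There Klf6 was 176.4 and 167.9 CPM in wild-type mice, then 230.8 and 328.9 CPM in Cd40-/- mice. Klf4 was 23.6 and 17.4 CPM, then 36.2 and 47.8 CPM. Klf10 was 36.5 and 34.0 CPM, then 37.0 and 62.1 CPM. In ranges 3 and 4, Klf3 and Klf10 kept it and Klf6 did not. Klf4 kept it in range 3 and lost it in range 4.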

How the results depend on the processing

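Each condition is 1 library, so no alternative speaks to the spread between mice. No paired analysis was possible because the only replicate number is 1 and no test was run. For 56 log2 ratios under 11 alternatives, 544 of 616 values stayed inside the counting interval and 28 changed sign, none of them among the 88 values of ratios past 2-fold, of which 7 came under 2-fold. The causes of the shifts were not tested. For Klf2 in Ccl21a-high cells, the log2 ratio of WT-RANKL-Ab to WT-Control, 1.42, was 1.29 with TMM factors, 1.58 with the class limit doubled, 1.54 in cells passing no other gate and 1.15 in cells at or below the WT-Control median of immediate early genes. The ratio of Cd40-/- Control, 0.81, was 0.65 with TMM factors, 0.98 as a mean over cells and 0.97 with the limit doubled. The ratio of Cd40-/- RANKL-Ab, 3.30, was 3.18 with TMM factors. Within Cd40-/-, 2.48 became 2.35 as a mean over cells and 2.32 at low immediate early level. Without the barcodes shared by the Cd40-/- libraries, a setting added after seeing the data, Klf2 ratios were 0.80 for Cd40-/- Control, 3.31 for Cd40-/- RANKL-Ab and 2.51 within Cd40-/-. At 1.5-fold in place of 2-fold, the members called in Ccl21a-high cells numbered 2 for WT-RANKL-Ab, then 3 for Cd40-/- Control and 4 for Cd40-/- RANKL-Ab, and in the last library 2 in progenitor-like, 2 in cTEC-like and 6 in tuft-like cells. With 1 CPM added in place of 10, Cd40-/- RANKL-Ab had 2 members called in Ccl21a-high and 1 in cTEC-like cells. The shares of all genes called at these settings are not given here, so these counts are not read as results about the members. Among genes with at least 200 UMIs, 0 members were called in tuft-like cells of that library, but Klf2 (166 UMIs) and Klf10 (103 UMIs) fell under this minimum and were not tested. With TMM factors, a setting added for the calls after seeing the data, 0 members were called in progenitor-like cells of that library.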
